A study of Mus musculus with 8 samples.

Results

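The cytosolic heat shock chaperones of mouse retina were followed as 10 genes, taken from the whole-genome array table as every probe set annotated with a single symbol among Hspa1a, Hspa1b, Hspa8, Hsph1, Dnajb1, Bag3, Hspb8, Hspb1, Hsp90aa1 and Hsf1. The rule found 23 probe sets of 45037 for 9 of the genes, and Hsf1 had none and was not analysed here. The injected group was 4 samples of injected retina, described in the labels as a compound-based treatment with no compound, dose, route or interval named. The control group was 4 freshly dissected retinas at time 0 d, 1 array per sample. The labels used here give neither strain, age, sex nor genotype, and name no sham-injected group, so effects of injecting and of what was injected cannot be told apart. Whether each retina of a group is from its own animal is not stated either, and the p-values reflect variation among these arrays that may be technical only. Probe sets of a gene are numbered from the brightest (the first) downward, as in the plots, which also carry their array identifiers.

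Cytosolic chaperones bind unfolded protein and hold, refold or hand it on for degradation. HSP70 proteins work in a cycle of ATP hydrolysis driven by J-domain partners such as Dnajb1 and reset by exchange factors such as Hsph1 and Bag3, while small heat shock proteins hold unfolded clients and HSP90 matures kinases and steroid receptors. Under heat, oxidative or proteotoxic stress the transcription factor HSF1 binds heat shock elements, which are alternating copies of a short GAA unit, and raises the transcription of many of these genes. Retinal photoreceptors and glia are known to make chaperones, and Hspb1 is known to be raised in injured retinal neurons and glia.

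The upstream sequence of 3 chaperone genes is shown because Hspa1a and Hspa1b are near-copies whose signals are easily mixed and because Hspb1 holds a pair of candidate elements. Each is the 250 bases before the annotated start, from RefSeq (GRCm38.p6), written 5′ to 3′ on the gene's strand, with capitals on matches to GAANNTTC, which is a head-to-head pair of GAA units.
Hspa1a (chr17:34972157-34972406, minus strand): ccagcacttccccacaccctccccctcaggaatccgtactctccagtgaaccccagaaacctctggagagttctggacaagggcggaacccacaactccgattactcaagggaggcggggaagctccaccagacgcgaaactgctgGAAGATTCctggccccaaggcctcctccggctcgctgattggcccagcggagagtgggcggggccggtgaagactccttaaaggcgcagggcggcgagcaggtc
Hspa1b (chr17:34959239-34959488, minus strand): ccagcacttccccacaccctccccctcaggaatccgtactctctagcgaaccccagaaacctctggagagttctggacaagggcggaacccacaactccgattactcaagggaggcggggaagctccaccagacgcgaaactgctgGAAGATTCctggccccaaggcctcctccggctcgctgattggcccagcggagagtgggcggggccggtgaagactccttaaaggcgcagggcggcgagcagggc
Hspb1 (chr5:135887669-135887918, plus strand): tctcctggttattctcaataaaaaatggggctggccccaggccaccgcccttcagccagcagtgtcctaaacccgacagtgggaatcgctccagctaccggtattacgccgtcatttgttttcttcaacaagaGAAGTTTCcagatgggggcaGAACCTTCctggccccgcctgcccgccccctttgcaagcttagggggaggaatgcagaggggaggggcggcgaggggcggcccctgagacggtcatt
The Hspa1a and Hspa1b stretches were identical at 247 of 250 bases (98.8%), and the match lay 104 bases before the start in both. The matches of Hspb1 began 117 and 97 bases before the start.

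In Bag3, Hspb8 and Hsph1 a match lay just after the start, and 30 bases around it are shown in the same notation. For Hsph1 the capitals mark 3 alternating units (TTC, GAA and TTC, each 2 bases apart), a stretch in which GAANNTTC and TTCNNGAA overlap.
Bag3 (chr7:128523603-128523632, plus strand): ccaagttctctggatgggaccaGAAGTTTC
Hspb8 (chr5:116422844-116422873, minus strand): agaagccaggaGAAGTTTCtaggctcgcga
Hsph1 (chr5:149636280-149636309, minus strand): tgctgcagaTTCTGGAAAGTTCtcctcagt
RefSeq promoter entries, each 300 bases from 250 before to 50 after the start, matched 7 of the 10 genes with 9 entries. Searched on both strands, GAANNTTC or TTCNNGAA was present in 7 of these 9 entries, belonging to 6 genes, against 15.1% of all 32851 entries. A run of 3 alternating units (GAA, TTC and GAA, each 2 bases apart, on either strand) was present in 2 of 9, both of Hsph1, against 0.603% of all entries. The 2 Hsph1 entries overlap and hold the same matches, so this run is the same stretch of DNA in both. The Hspa1a and Hspa1b entries were identical at 296 of 300 bases. The 9 entries are therefore not independent, and these shares were not tested. Outside the stretch shown, Hsph1 also matched TTCNNGAA before the start, at 54 or 33 bases depending on the entry. Dnajb1 had no match in its entries, which says only that these letters are not in those windows. A match describes letters and was not tested for binding.

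The comparison asks whether chaperone transcripts of the retina differed after injection. None of the 21 chaperone probe sets bright enough to be tested passed an adjusted p of 0.05 (limma with Benjamini-Hochberg adjustment over all 27022 tested probe sets), against a background of 0% of all tested probe sets higher and 0% lower. Their adjusted p ran between 0.713 and 0.986. Values are given on the log2(intensity + 16) scale after quantile normalisation between arrays, and a difference is injected minus control. A total of 13 differences were below 0 and 8 above 0, with a median of -0.11. Over all tested probe sets 52.4% were below 0 and the median was -0.02. The extremes were -1.11 at an Hspa1b probe set and 0.46 at an Hspa8 probe set.

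At an unadjusted p under 0.05 there was 1 chaperone probe set of 21 (4.76%), a lower one, against 6.99% of all tested probe sets (3.66% higher and 3.33% lower). The groups did not overlap at 1 of 21 (4.76%), again with injected lower, against 5.07% of all tested probe sets (2.47% with injected above and 2.60% with injected below). Neither share stands above its background. A p that misses the threshold does not show that levels were the same, so the 95% intervals of the differences are given beside them. The interval lay wholly below a doubling (1 log2 unit) at 18 of 21 probe sets. The 3 others were the third Hspa8 probe set, reaching 1.32, Bag3, reaching 1.40, and the second Hspb1 probe set, reaching 1.14. On the lower side the interval passed a halving (-1 log2 unit) at 7 of 21. These were Hspa1b at the third and the second probe set (-2.45 and -1.68), Bag3 (-2.10), Hsph1 at the second (-1.48), Hsp90aa1 at 2 probe sets (-1.20 and -1.19) and Hspb8 at the second (-1.13). The interval stayed within 1 log2 unit both ways at 12 of 21.

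**Figure D1:**
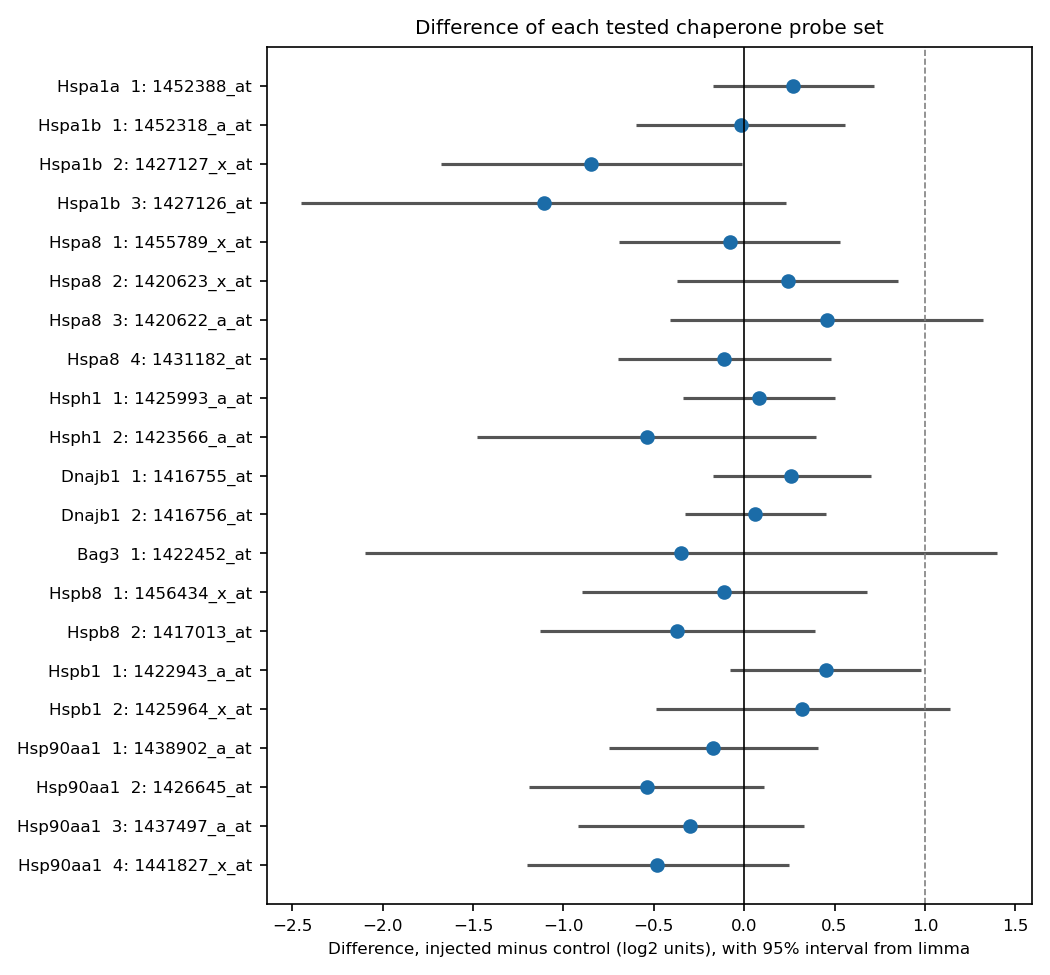
Difference of each tested chaperone probe set, injected minus control retina in log2 units (points) with its 95% interval from limma (bars); the solid line is 0 and the dashed line is 1 log2 unit. The interval crosses 0 at every probe set shown except the second Hspa1b probe set (-1.68 to -0.01), 3 intervals pass the dashed line, and 7 reach below -1.

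The samples were retina by their markers. Of 11 markers of retinal neurons with a probe set, 10 lay above the floor of 8.5 used to choose tested probe sets, among them the rod genes Sag (mean log2 value 16.02 in injected and 16.32 in control retina) and Gnat1 (14.26 and 14.55), and 8 of 8 markers of Müller glia did so. Striated muscle is rich in Bag3 and small heat shock proteins, and of its 12 markers 10 lay below the floor. The summed intensity of that list was 2208 to 3628 in injected and 2365 to 2763 in control retina. Summed reactive glia markers (6 of 6 above the floor) were 61902 to 115980 in injected and 34606 to 40690 in control retina. Summed immediate early genes (10 of 12 above the floor) were 55110 to 71077 in injected and 95124 to 127019 in control retina. Microglia and leukocyte markers (9 of 10 above the floor) summed to 71226 to 170040 in injected and 34321 to 58556 in control retina. Lens markers (5 of 10 above the floor) were 5215 to 84042 in injected and 2081 to 16246 in control retina. Pigment cell markers were 35363 to 108152 in injected and 79952 to 357476 in control retina, and fibroblast and sclera markers 7233 to 14513 in injected and 5769 to 48210 in control retina, each highest on control replicate 2. Neuron markers (225737 to 344127 in injected, 315307 to 341122 in control retina), Müller glia (241111 to 344136 and 291817 to 351577), endothelium (11572 to 29118 and 23794 to 29804), smooth muscle and pericytes (8546 to 23507 and 11642 to 31652) and blood (90 to 607 and 100 to 289) overlapped between the groups. No marker was at 0 on any array, and the part of these cells in the chaperone values was not tested. In such tissue samples fewer cells of a type and less RNA per cell cannot be told apart.

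Injected replicate 3 stood apart from the other arrays. It held the highest or the lowest of the 8 values at 14 of 21 chaperone probe sets (66.7%) and at 57% of all tested probe sets, and its array weight in limma was 0.191, against 0.646 to 1.46 in the other injected and 0.962 to 1.83 in the control arrays. The ratio of the 3′ to the 5′ control probe set for Gapdh, a measure of RNA integrity and labelling, was 6.23, 5.26, 8.82 and 6.71 in injected replicates 1 to 4 and 3.64, 3.95, 3.36 and 4.68 in control replicates 1 to 4. The groups did not overlap (p = 0.0286 by an exact permutation test, two-sided, a value no design of 4 arrays a group can go under; Benjamini-Hochberg over the 3 ratios computed gave 0.0857, which misses 0.05, also exact). For Actb, injected and control retina overlapped in the 3′ to 5′ ratio (43.3 to 59.7 and 39.2 to 57.2; exact permutation p = 0.486). The Actb 3′ to middle ratio was 18.7 in injected replicate 3 and 7.04 to 10.6 on the other injected arrays, against 7.41 to 7.99 in control retina (exact permutation p = 0.429). On every array of both groups the 3′ signal was above the 5′ signal, at least 3.36 times for Gapdh and 39.2 times for Actb. Overlap of the groups therefore does not show that the RNA was intact. The part of RNA integrity in the values below was not tested.

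Hspa1a and Hspa1b encode the stress-inducible HSP70, and both are classical HSF1 targets. Hspa1a, read at 1 probe set, had log2 values of 12.83, 12.94, 12.98 and 13.09 in injected replicates 1 to 4, against 13.10, 12.43, 12.52 and 12.69 in control replicates 1 to 4. All injected values lay above control replicates 2, 3 and 4 and below control replicate 1, so the groups overlapped. The difference was 0.27 ± 0.20 (SE, n = 4 each), with an interval of -0.17 to 0.72 (limma adjusted p = 0.754). It was 0.41 without control replicate 1 and 0.19 without control replicate 2. With centring on array medians it was 0.03.

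Hspa1b was read at 3 probe sets that did not move together. At the third probe set the values were 13.02, 13.28, 10.57 and 13.74 in injected replicates 1 to 4, against 13.76, 13.58, 13.74 and 13.96 in control replicates 1 to 4. Injected replicate 3 lay far below all other arrays, at a deposited intensity of 1626, against 12363 to 16638 in control retina. The difference was -1.11 ± 0.59 (SE; limma adjusted p = 0.73), and without injected replicate 3 it was -0.41 (adjusted p = 0.752). The same array was lowest at the second probe set, which read 13.83, 13.91, 12.47 and 14.44 in injected, against 14.58, 14.37, 14.46 and 14.62 in control retina. That probe set was the 1 that met the unadjusted threshold (difference -0.85 ± 0.37, limma adjusted p = 0.713), its groups overlapped at injected replicate 4, and leaving out injected replicate 3 gave -0.44 (adjusted p = 0.702).

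The first Hspa1b probe set went the other way on that array. It read 14.34, 14.38, 15.38 and 14.96 in injected retina, against 14.77, 14.63, 14.76 and 14.98 in control retina, so injected replicate 3 was the highest of the 8 arrays. The difference was -0.02 ± 0.26 (SE; limma adjusted p = 0.986). The gap between the first probe set and the third probe set was 1.32, 1.10, 4.81 and 1.22 log2 units in injected replicates 1 to 4, against 1.01 to 1.05 in control retina. Probe sets of Hspa1b can also bind Hspa1a, so which of the 2 copies each reads is uncertain.

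**Figure D2:**
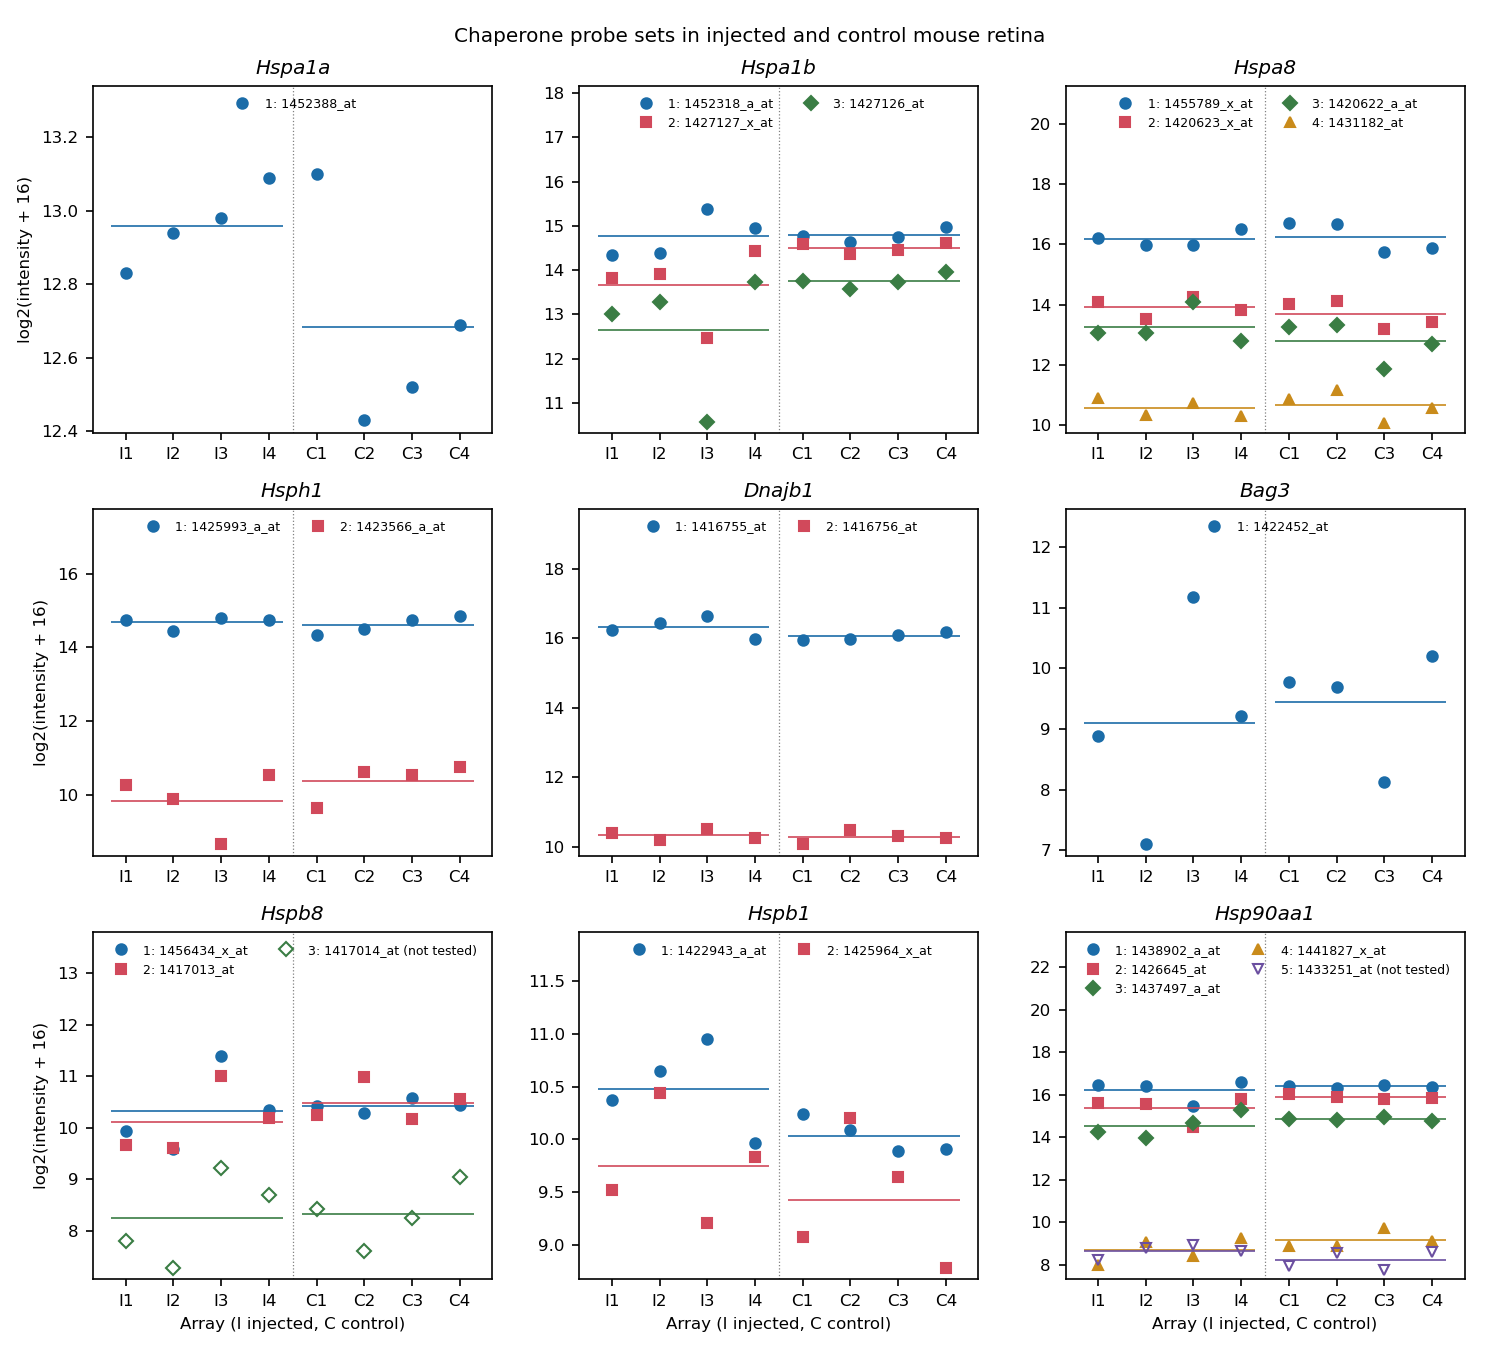
Log2(intensity + 16) of all 23 chaperone probe sets on each array, 1 panel per gene, with injected arrays (I1 to I4) left of control arrays (C1 to C4); short lines are group means and open symbols are the 2 probe sets below the test floor. Groups overlap at all tested probe sets but the second Hsp90aa1 probe set, and I3 is low at the third Hspa1b probe set (10.57) while high at the first probe set (15.38).

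Hspa8 encodes the constitutive HSP70 of the cytosol, which also uncoats clathrin vesicles. Its probe sets differed by 0.46 ± 0.38 (the third), 0.24 ± 0.27 (the second), -0.08 ± 0.27 (the first) and -0.11 ± 0.26 (the fourth). The ± values are SE, and limma adjusted p lay between 0.772 and 0.939. At the probe set with the highest mean, the first, injected replicates 1 to 4 read 16.22, 15.99, 15.97 and 16.50, against 16.70, 16.68, 15.75 and 15.87 in control replicates 1 to 4. The controls fell into a high and a low pair. The same order held at all 4 probe sets, with control replicates 1 and 2 above control replicates 3 and 4. At the third probe set the injected values were 13.06, 13.05, 14.07 and 12.79, against 13.25, 13.33, 11.87 and 12.69 in control retina, a range of 1.28 in injected and 1.46 in control. That probe set was at 0.18 without injected replicate 3 and at 0.16 without control replicate 3. The second probe set was at 0.07 without control replicate 3 and at 0.39 without control replicate 2.

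Hsph1 encodes the large HSP110 exchange factor of HSP70. At the first probe set it read 14.74, 14.46, 14.80 and 14.74 in injected retina, against 14.34, 14.50, 14.75 and 14.85 in control retina (difference 0.08 ± 0.19, limma adjusted p = 0.913), and the interval of -0.34 to 0.50 was among the narrower ones. The dim second probe set read 10.28, 9.91, 8.67 and 10.56 in injected, against 9.65, 10.62, 10.54 and 10.76 in control retina (difference -0.54 ± 0.42, adjusted p = 0.764). Injected replicate 3 was again the lowest array there, and without it the difference was -0.15.

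Dnajb1 encodes an HSP40, the J-domain partner that delivers clients to HSP70. At the first probe set it read 16.24, 16.43, 16.64 and 15.98 in injected replicates 1 to 4, against 15.95, 15.99, 16.10 and 16.19 in control replicates 1 to 4. Injected replicates 1, 2 and 3 lay above all controls and injected replicate 4 among them. The difference was 0.26 ± 0.19 (SE; interval -0.17 to 0.70, limma adjusted p = 0.755), and it was 0.14 without injected replicate 3. At the second probe set it was 0.06 ± 0.17, the smallest standard error among the chaperones.

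Bag3 is a co-chaperone that couples HSP70 to small heat shock proteins and to autophagy, and Hspb8 is the small heat shock protein it binds. Bag3 read 8.88, 7.11, 11.17 and 9.22 in injected replicates 1 to 4, against 9.77, 9.69, 8.12 and 10.20 in control replicates 1 to 4. The injected arrays spanned 4.06 log2 units, with the lowest and the highest of all 8 values among them. Injected replicate 2 and control replicate 3 read below the floor of 8.5, which was applied to the mean over arrays. The low end of the span is therefore a dim reading, and leaving out either array removes such a reading. The difference was -0.35 ± 0.78 (SE; interval -2.10 to 1.40, limma adjusted p = 0.904), and it was 0.31 without injected replicate 2 and -1.05 without injected replicate 3. Leaving out control replicate 3 gave -0.79 and control replicate 4 gave -0.10.

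Hspb8 had its extremes on the same injected arrays as Bag3. At the first probe set it read 9.94, 9.59, 11.40 and 10.34 in injected, against 10.42, 10.29, 10.57 and 10.44 in control retina, and at the second probe set 9.67, 9.60, 11.01 and 10.19, against 10.25, 10.98, 10.16 and 10.55. Injected replicate 2 was the lowest of 8 and injected replicate 3 the highest at both. The differences were -0.11 ± 0.35 and -0.37 ± 0.34 (SE; limma adjusted p = 0.934 and 0.78). At the first probe set the difference was 0.13 without injected replicate 2 and -0.49 without injected replicate 3. At the second it was -0.69 without injected replicate 3, -0.22 without injected replicate 1, and -0.20 without injected replicate 2 or control replicate 2. The third probe set was below the floor and not tested. It read 7.81, 7.27, 9.22 and 8.69 in injected retina, against 8.42, 7.61, 8.24 and 9.04 in control retina, with the same lowest and highest arrays. Injected replicate 2 also held the highest summed lens markers (84042), and injected replicate 3 the highest Gapdh ratio; their part in these values was not tested. In control retina the 2 genes did not share their order, since control replicate 3, the lowest for Bag3, was the highest control for Hspb8 at the first probe set.

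**Figure D3:**
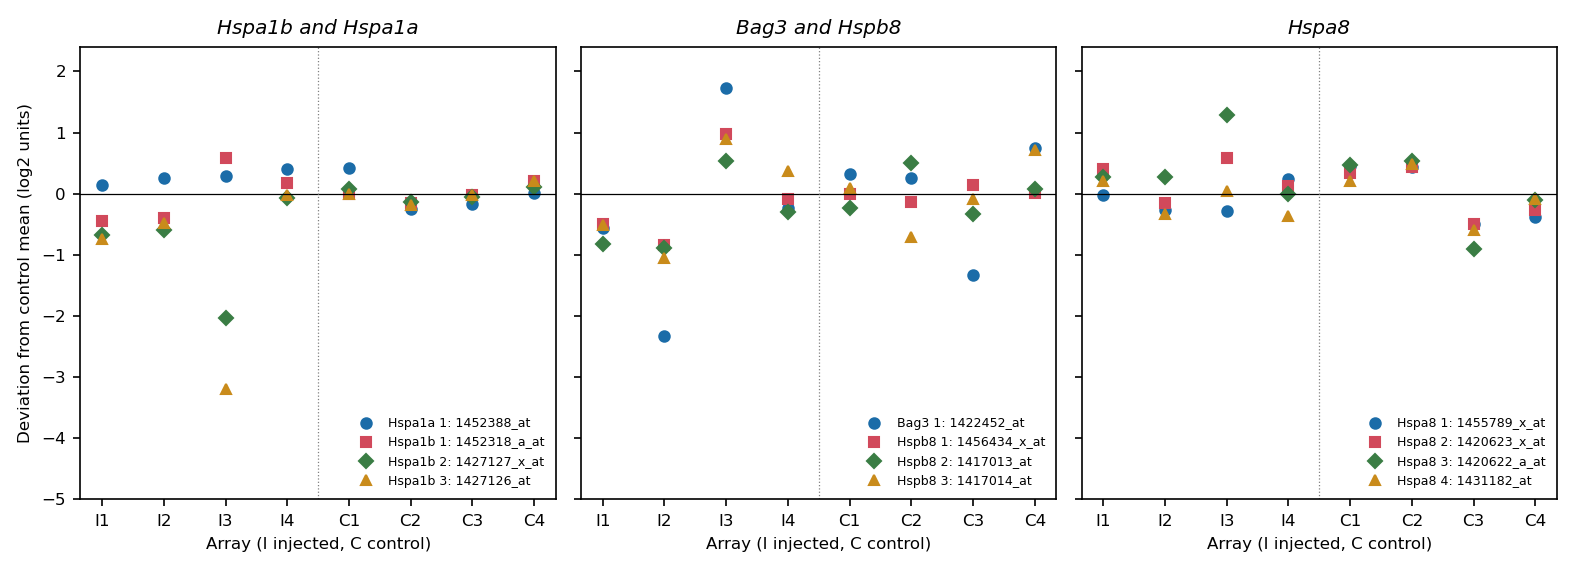
Deviation of each probe set from its own control mean, in log2 units, for Hspa1b with Hspa1a, Bag3 with Hspb8, and Hspa8, on injected arrays (I1 to I4, left) and control arrays (C1 to C4, right). On I3 the third Hspa1b probe set sits at -3.20 and the first probe set at 0.59; Bag3 runs between -2.33 (I2) and 1.73 (I3); Hspa8 is above its mean in C1 and C2 and below it in C3 and C4.

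Hspb1 encodes HSP25, the mouse counterpart of human HSP27, a small heat shock protein that also binds actin. At the first probe set it read 10.37, 10.65, 10.95 and 9.96 in injected replicates 1 to 4, against 10.24, 10.09, 9.89 and 9.91 in control replicates 1 to 4. Injected replicates 1, 2 and 3 lay above all controls and injected replicate 4 within their range. The difference was 0.45 ± 0.24 (SE; interval -0.08 to 0.98, limma adjusted p = 0.727), or 0.30 with injected replicate 3 left out. At the second probe set the values were 9.52, 10.44, 9.20 and 9.83 in injected, against 9.07, 10.20, 9.64 and 8.78 in control retina, a difference of 0.32 ± 0.36 (adjusted p = 0.81). That difference was 0.09 without injected replicate 2 and 0.52 without injected replicate 3. Leaving out control replicate 1 gave 0.20, control replicate 2 gave 0.58 and control replicate 4 gave 0.11. The array order differed between the probe sets, as injected replicate 3 was the highest array at the first and the lowest injected array at the other. The summed intensity of reactive glia markers, given above, was higher on all injected arrays than on all controls. Its bearing on the Hspb1 values was not tested.

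Hsp90aa1 encodes the inducible form of cytosolic HSP90. Its 4 tested probe sets had differences of -0.54 (the second), -0.48 (the fourth), -0.30 (the third) and -0.17 (the first). All were below 0, with limma adjusted p between 0.73 and 0.857. At the second probe set it read 15.63, 15.55, 14.48 and 15.81 in injected replicates 1 to 4, against 16.04, 15.92, 15.82 and 15.84 in control replicates 1 to 4. This was the chaperone probe set whose groups did not overlap, with injected replicate 4 and control replicate 3 the nearest. In the deposited intensities its groups did overlap, with injected replicate 4 at 55022 and control replicate 4 at 54716. The difference was -0.54 ± 0.29 (SE; adjusted p = 0.73), and -0.23 without injected replicate 3 (adjusted p = 0.822).

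The other Hsp90aa1 probe sets overlapped between the groups. At the first probe set the values were 16.45, 16.40, 15.47 and 16.60 in injected, against 16.44, 16.34, 16.47 and 16.35 in control retina. The difference of -0.17 ± 0.26 rested on injected replicate 3, without which it was 0.07. At the third probe set they were 14.25, 13.97, 14.69 and 15.28 in injected, against 14.86, 14.80, 14.96 and 14.76 in control retina, and here injected replicate 2 was lowest. The difference there was -0.10 without injected replicate 2 and -0.54 without injected replicate 4. A dim probe set, 4 in the plot of levels, read between 7.98 and 9.28 in injected, against 8.89 to 9.73 in control retina. Its difference of -0.48 was -0.24 without injected replicate 1 and -0.29 without control replicate 3. Probe set 5, the dimmest, was below the floor and not tested, at a mean of 8.67 in injected and 8.22 in control retina.

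Control retinas were tight for some of these genes. The SD of the 4 controls was 0.07, 0.10 and 0.08 at the 3 bright Hsp90aa1 probe sets, against 0.52, 0.60 and 0.57 in injected retina. Over the 21 tested chaperone probe sets the median SD was 0.53 in injected and 0.23 in control retina, and the injected SD was the larger at 13. Over all tested probe sets the median SD was 0.42 in injected and 0.26 in control retina, and the injected SD was the larger at 72.5%. A wider spread among injected arrays was thus common over the whole table.

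The gap between probe sets of a gene was taken on each array. For Hsp90aa1 the gap between the first probe set and the second probe set was 0.83, 0.85, 0.99 and 0.79 log2 units in injected replicates 1 to 4, against 0.40, 0.42, 0.65 and 0.51 in control replicates 1 to 4, with no overlap. Of 19 such pairs within the chaperone genes, 4 had gaps that did not overlap between the groups (1 of Hsp90aa1, 2 of Hspa1b and 1 of Hspa8), or 21.1%, against 3.79% of 15371 pairs over all genes. Pairs of a gene share probe sets, so these 4 are not independent, and no test was made. Gapdh 3′ to 5′ ratios also did not overlap, whereas the Actb ratios did. The positions of the probes along the transcripts were not used here.

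**Figure D4:**
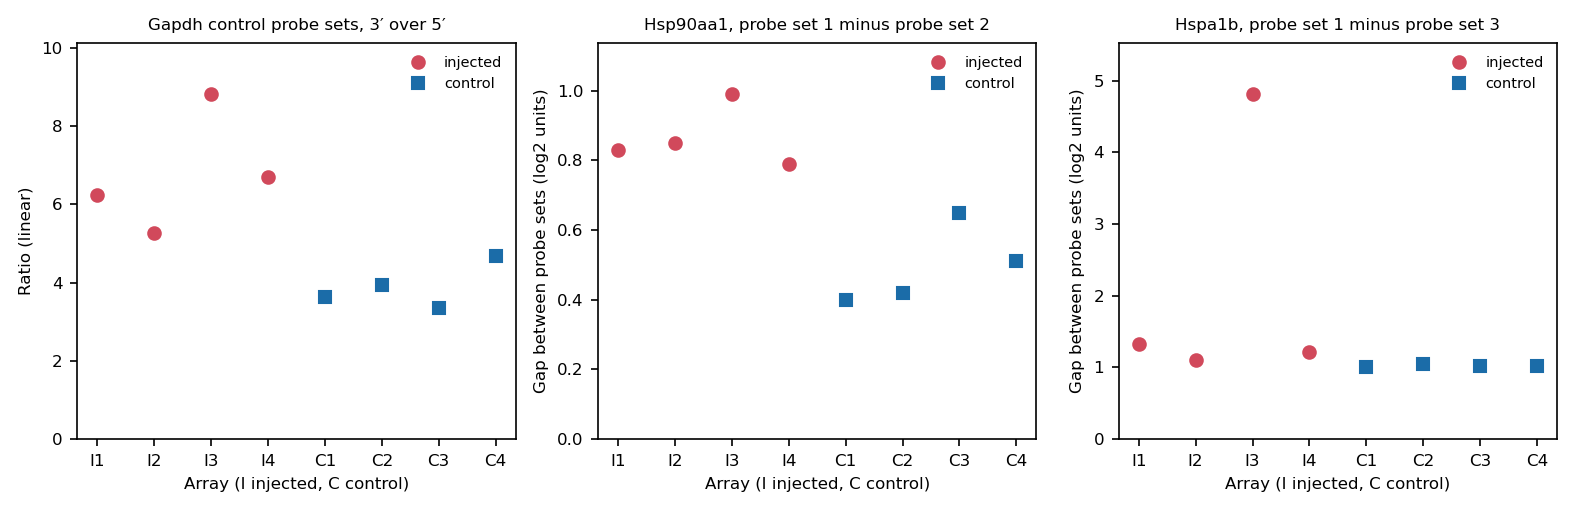
The Gapdh 3′ to 5′ control ratio (left, linear) and the gaps between probe sets of Hsp90aa1 (middle) and Hspa1b (right) in log2 units, with injected arrays (I1 to I4) left of control arrays (C1 to C4). All 4 injected arrays lie above all controls in each panel, and I3 is the highest in each (8.82, 0.99 and 4.81).

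Other chaperone genes were read from 7 lists covering HSP70 and HSP90 partners, other small heat shock proteins, heat shock factors, the TRiC chaperonin with prefoldin, and mitochondrial and endoplasmic reticulum chaperones. Of their 77 genes 68 were tested, each at its brightest probe set, and 0 were called higher and 0 lower by limma. At an unadjusted p under 0.05 there was 1 (1.47%), against 6.99% of all tested probe sets, and 36 differences were below 0 and 32 above. The background counts every tested probe set and not the brightest of each gene, so the 2 shares are not like for like. The list medians ran from -0.14 (TRiC and prefoldin, 11 of 14 below 0) to 0.19 (other small heat shock proteins, 4 of 4 above 0), with -0.05 for HSP70 partners, -0.05 for HSP90 partners, 0.02 for heat shock factors, 0.15 for mitochondrial and 0.02 for endoplasmic reticulum chaperones, and all tested probe sets had -0.02. Injected replicate 3 was the lowest of 8 arrays at 7 of the 14 TRiC and prefoldin genes, and without it their median was -0.05, with 11 of 14 still below 0. Without the same array the mitochondrial median was -0.02, and without injected replicate 2 that of the other small heat shock proteins was 0.09.

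The gene at that unadjusted p was Fkbp5, a co-chaperone of HSP90 that is also a well-known glucocorticoid-induced gene. It read 11.41, 11.42, 11.41 and 11.64 in injected replicates 1 to 4, against 10.95, 10.96, 11.16 and 11.16 in control replicates 1 to 4. Every injected array lay above every control. Groups without overlap were seen at 1 of the 68 tested list genes, against 5.07% of all tested probe sets, a background with the same limit. The difference was 0.41 ± 0.16 (SE; interval 0.04 to 0.78, limma adjusted p = 0.709). Fkbp4, its relative in steroid receptor complexes, was at 0.82 ± 0.56 (adjusted p = 0.75), with control replicate 1 at 7.38 and the other controls at 9.78 to 10.15. Without control replicate 1 it was 0.17.

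Among HSP70 partners the smallest p belonged to the exchange factor Bag2 (0.60 ± 0.34), to Bag6 (-1.08 ± 0.64) and to the testis-enriched Hspa2 (-0.30 ± 0.23), with limma adjusted p between 0.741 and 0.759. Bag6 was uneven in injected retina, at 8.98, 6.85, 9.64 and 6.54, against 8.78 to 9.33 in control retina. Its values on injected replicates 2 and 4 lay below the floor of 8.5. Without injected replicate 2 Bag6 was at -0.70, without injected replicate 4 at -0.60 and without control replicate 4 at -1.18. The remaining leave-outs gave no value for Bag6. Hsbp1, which binds HSF1, was at -0.70 ± 0.47, with injected replicate 3 at 12.02, and at -0.16 without that array. Hsf4, a lens-expressed heat shock factor, was at 0.20 ± 0.41, and at -0.17 without control replicate 1 and -0.03 without injected replicate 2. In mitochondria the HSP70 Hspa9 was at 0.33 ± 0.18, and in the endoplasmic reticulum the HSP90 Hsp90b1 was at -0.75 ± 0.39 (adjusted p = 0.725), where injected replicate 3 read 12.86, against 14.24 to 14.93 on the other injected arrays and 14.72 to 15.03 in control retina. Without injected replicate 3 Hsp90b1 was at -0.33. None of these passed the threshold.

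The remaining genes of smallest p in their lists did not pass either. The HSP90 adaptor Stip1 was at -0.26 ± 0.32. In the list of other small heat shock proteins, Hspb3, Hspb6 and Hspb11 were at 0.19 ± 0.20, 0.19 ± 0.23 and 0.12 ± 0.18. Hspb11 shares the symbol series of that list, and its membership of the protein family was not examined. Hsf2bp, which binds the heat shock factor HSF2, was at 0.14 ± 0.28. The prefoldin subunits Pfdn4 and Vbp1 were at -0.61 ± 0.39 and -0.34 ± 0.27, and the TRiC subunit Cct5 at -0.27 ± 0.22. Among mitochondrial chaperones the exchange factor Grpel2 was at -0.37 ± 0.25 and the HSP90 Trap1 at 0.34 ± 0.29. In the endoplasmic reticulum the lectin chaperone Canx was at 0.27 ± 0.23 and the J-domain protein Dnajb11 at -0.27 ± 0.23. Without injected replicate 3, Pfdn4 was at -0.17, Vbp1 at -0.07, Cct5 at -0.12, Grpel2 at -0.13, Stip1 at -0.08, Canx at 0.11 and Dnajb11 at -0.13. Hsf2bp was at -0.04 without control replicate 2, Trap1 at 0.18 without injected replicate 1, Hspb6 at 0.06 without injected replicate 1, Hspb3 at 0.09 without control replicate 4 and Hspb11 at 0.05 without injected replicate 3. Limma adjusted p for these 12 genes ran from 0.745 to 0.891.

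**Figure D5:**
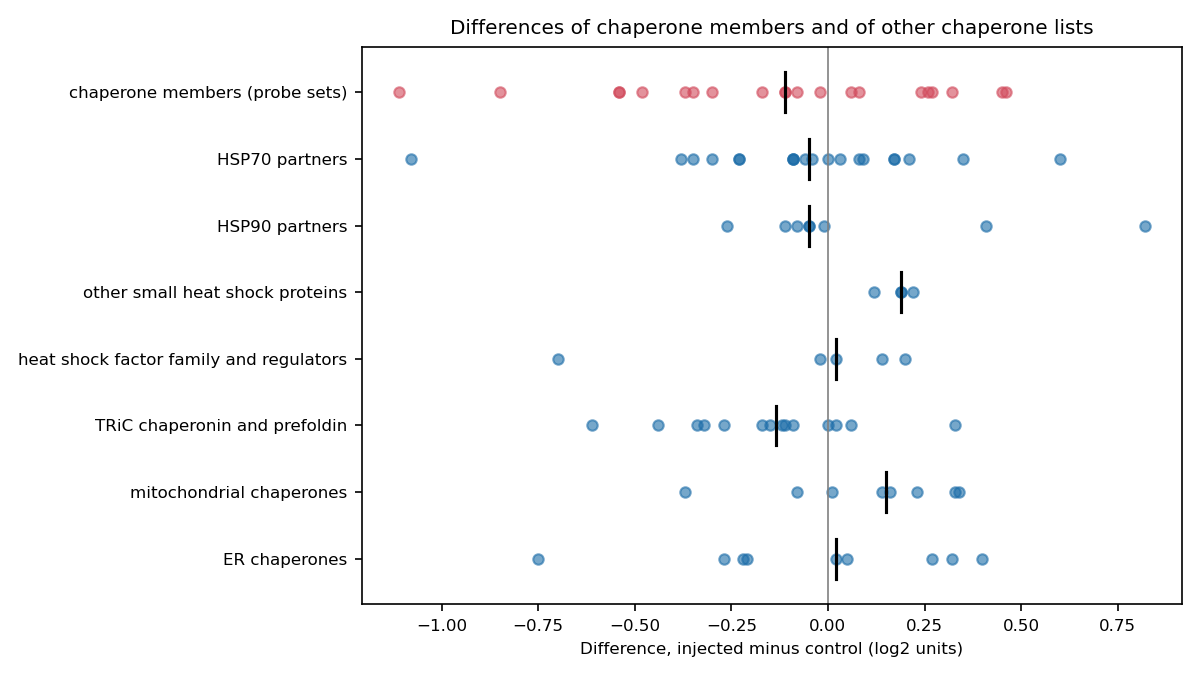
Differences, injected minus control in log2 units, for the 21 tested chaperone probe sets (top row, red) and for the tested genes of 7 other chaperone lists (blue, 1 probe set per gene); black bars are medians. Medians lie between -0.14 and 0.19, and no point passed the adjusted threshold.

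The array profile nearest to Hspa1b at its first probe set was sought among the tested genes other than Hspa1a and Hspa1b. The measure was the root mean square difference of centred log2 values over the 8 arrays. Nudt19 (0.101 log2 units), Atp2b2 (0.103), Pi4k2b (0.103), Hs3st2 (0.111) and Spcs1 (0.118) came nearest. None is a heat shock chaperone, and over 8 arrays such nearness is a description only.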

How the data were processed

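RNA of 8 mouse retina samples, 4 injected and 4 control, was hybridised to Affymetrix arrays, 1 array per sample; groups and replicate numbers come from the titles in the labels. The authors deposited an unlogged intensity for each probe set on each array. Trimmed by 2% at either end, these intensities average 2500 on all arrays, as global scaling would leave them, and the software is not given in the sources used here. Global scaling hides a change in total RNA. The table held 45101 probe sets, of which 64 array controls served only as quality measures. Of the rest 34945 had 1 gene symbol in the platform annotation, 932 several and 9160 none. All 9 chaperone genes with a probe set matched RefSeq by Entrez identifier with the same symbol. Probe sets ending in x_at (6 of 23) or a_at (7 of 23) can bind related transcripts or several isoforms.

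Array medians of the deposited intensities ran from 495 to 766, a ratio of 1.55, so intensities were quantile-normalised in limma 3.58.1 (R 4.3.3) and taken as log2(intensity + 16), which understates changes of dim genes; each log2 value comes from these deposited intensities. Probe sets at or above the 40th percentile of mean log2 value (8.5, about 345 intensity units) were tested, 27022 in all. The groups were compared in limma with moderated variances (prior df 3.3), and p-values were adjusted by Benjamini-Hochberg over all tested probe sets at a threshold of 0.05. The number of arrays limits the precision. The fit was tested on simulated data with known changes.

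Named genes are every chaperone, and of each other list up to 3 genes of smallest p at their brightest probe set. The genes, the 7 chaperone lists, the 12 marker lists and the tests were chosen with earlier results of these data known. The settings varied were the pseudocount (1 or 64), the filter (none), the scaling (as deposited, or centred on array medians), the prior (trended and robust), array weights (statmod 1.5.0), a replicate block, an unmoderated test, each array left out, and, added after the data were seen, injected replicate 3 and control replicate 2 left out together. The other chaperone lists were refitted with each array left out, also added after the data were seen. Promoter letters were searched in Python 3.11.15 and aligned with Biopython 1.88; figures were drawn with matplotlib 3.10.9.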

Additional observations from a re-analysis of the deposited data

Results flagged for a closer look

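Of 46 groups of 4 values, 1 held a value farther from the other 3 than Dixon's 95% limit for 4 values, where chance gives about 1 in 20. It was Hsph1 at the first probe set, where injected replicate 2 read 14.46 and the other injected arrays read 14.74 to 14.80. The gap was 0.838 of the range, and the value lay inside the range of the controls (14.34 to 14.85).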

How the results depend on the processing

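The count of chaperone probe sets called was 0 under every alternative run, with a smallest adjusted p of 0.713 in the main setting and of 0.476 to 0.889 under the others. Over all probe sets the count of 0 became 8 with array weights (7 higher, 1 lower), and leaving out 1 array gave 0 to 34, the 34 (29 higher, 5 lower) without injected replicate 4. The median chaperone difference of -0.11 ran from -0.15 to 0.09 with 1 array left out and was 0.09 without injected replicate 2, where 11 differences were above 0 and 10 below. It was -0.25 with centring on array medians and -0.06 with the deposited scaling. The number of intervals below a doubling, 18, ran from 16 to 20 over all alternatives. Centring on medians moved the median of all tested probe sets to -0.15 (-0.02 in the main setting) and the split of all probe sets to 9075 higher and 17947 lower, against 12868 and 14154, and that of the chaperones to 6 and 15, against 8 and 13. With the deposited scaling the splits were 14500 and 12522 for all probe sets, and 10 and 11 for the chaperones.

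Small differences changed sign in these cases, and the cause was not tested. With the deposited scaling the first Hspa1b probe set was at 0.02 and the first Hspa8 probe set at 0.07; with centring the second Dnajb1 probe set was at -0.05 and the first Hsph1 probe set at -0.11; with array weights the first Hsp90aa1 probe set was at 0. With each array left out in turn, the first Hspa1b probe set ran from -0.22 to 0.12, the first Hspb8 probe set from -0.49 to 0.13, Bag3 from -1.05 to 0.31, the first Hsp90aa1 probe set from -0.29 to 0.07, the second Dnajb1 probe set from -0.01 to 0.13, the first Hsph1 probe set from -0.01 to 0.16, the first Hspa8 probe set from -0.25 to 0.07 and the fourth Hspa8 probe set from -0.31 to 0.05. Without injected replicate 3 and control replicate 2 together, the first Hsp90aa1 probe set was at 0.06 and the first Hspa8 probe set at 0.12.

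Replicate numbers are shared between the groups, but same-numbered samples did not deviate together (correlations 0.08, 0.01, -0.03 and 0.04; 1 of 4 injected arrays correlated best with its own number). With a replicate block the chaperone count stayed 0, the count over all probe sets was 0, and the median difference was -0.11.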
